A study of Mus musculus with 4 samples.

Results

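The G1 cyclins and their kinases were examined as 8 of the 32285 gene rows of single-cell RNA-Seq count tables from mouse bone marrow. The genes were chosen by symbol and not by a measured value, though earlier results of these data were known. They are the D-type cyclins Ccnd1 (ENSMUSG00000070348), Ccnd2 (ENSMUSG00000000184) and Ccnd3 (ENSMUSG00000034165), their kinases Cdk4 (ENSMUSG00000006728) and Cdk6 (ENSMUSG00000040274), the E-type cyclins Ccne1 (ENSMUSG00000002068) and Ccne2 (ENSMUSG00000028212), and the kinase of the E-type cyclins, Cdk2 (ENSMUSG00000025358). All 8 were counted in both tables. The questions were which of these cyclins and kinases each cell type used, and how their levels differed between genotypes.

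A cell in G1 decides whether to copy its DNA by way of these proteins. D-type cyclins are made in response to growth signals, bind CDK4 or CDK6, and start the phosphorylation of the retinoblastoma family (RB, p107 and p130), which then releases E2F factors. E2F factors turn on E-type cyclins, whose complex with CDK2 completes the phosphorylation and drives entry into S phase. Long-term hematopoietic stem cells (LT-HSCs) are mostly quiescent, and a low level of CDK6 is known to set them apart from short-term stem cells, which leave quiescence faster. Sin3B, the protein removed in this study, is a scaffold of a repressor complex that works with E2F and the retinoblastoma family.

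Cells were LSK cells (Lineage-, Sca-1+, cKit+), the marrow fraction with stem cells and multipotent progenitors, sequenced with the 10x Genomics 3′ chemistry. The knockout mice were Sin3B F/F with Vav1-iCre, a recombinase active in blood cells from mid-gestation, so all blood lineages and not LT-HSCs alone had lost the gene. The controls are called wild type in the labels and Sin3B+/+ in the study's results, while its methods name Sin3B F/F mice. The methods do not say whether these controls carried the recombinase. By the name Sin3B F/F, the floxed allele is shared by both genotypes. One library came from mice at homeostasis (male, per the methods) and the other from mice 9 days after a single intraperitoneal dose of 100 mg/kg 5-fluorouracil (5-FU), which kills dividing cells. No source used here states the ages. Cells of 2 mice were pooled per genotype in each library, and the genotypes were told apart by hashtag antibodies, B0096 on wild-type and B0157 on knockout cells. A genotype within a library is therefore 1 pool, with no spread between mice. All intervals below are 95% counting intervals of that pool, no test between genotypes was possible, and condition and library cannot be told apart.

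After filters, 10184 wild-type and 4108 knockout cells were kept at homeostasis, and 4855 and 3307 after 5-FU, with median depths per pool from 6606.5 to 10935 unique molecular identifiers (UMIs) per cell. The stem and progenitor markers Kit (193.8 to 382.5 CPM, UMIs scaled to a fixed total) and Ly6a, which encodes Sca-1 (75.9 to 153.7 CPM), were present in all 4 pools. A set of 9 mature lineage genes summed to 14.6 CPM or less, a sum held low because cells with 2 or more of their UMIs were removed. Sin3b was at 81.7 CPM in wild-type and 23.3 CPM in knockout cells at homeostasis, and at 112.7 and 15.1 CPM after 5-FU. The number of knockout cells depended on how hashtags were read. With a tag holding 80% of the hashtag UMIs, 6137 wild-type and 868 knockout cells were kept at homeostasis and 4955 and 4051 after 5-FU, and with a stricter HTODemux quantile 9876 and 2391, and 4836 and 1759. Of the kept barcodes, 26 sequences occurred in both libraries, which is 0.319% of the 5-FU cells. In barcodes of the homeostasis table with 100 gene UMIs or fewer, which hold RNA from outside cells, Sin3b was at 66.7 CPM.

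The start regions of 5 of the 8 genes (Ccnd3, Cdk4, Cdk6, Ccne1 and Cdk2) are listed in RefSeq (GRCm38.p6), and those of Ccnd1, Ccnd2 and Ccne2 are not used here. The 250 bases before each start were searched on both strands for the E-box CACGTG, which MYC family factors bind, the E2F motifs TTTCCCGC and TTTGGCGC, the cell cycle homology region TTTGAA and the GC box GGGCGG. Capitals below mark E-boxes and E2F motifs. Cdk4 is shown for its repeated E-boxes, Cdk2 as the member with an E2F motif, and Cdk6 and Ccnd3 because their levels differed most between genotypes in all kept cells at homeostasis; Ccnd3 has 2 listed starts, 88.4 kb apart.
Cdk4 (chr10:127063285-127063534, plus strand): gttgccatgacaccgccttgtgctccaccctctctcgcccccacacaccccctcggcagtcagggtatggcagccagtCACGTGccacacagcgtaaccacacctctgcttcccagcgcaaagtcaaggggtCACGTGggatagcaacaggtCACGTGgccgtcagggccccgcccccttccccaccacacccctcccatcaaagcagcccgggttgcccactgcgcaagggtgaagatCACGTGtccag
Cdk2 (chr10:128705052-128705301, minus strand): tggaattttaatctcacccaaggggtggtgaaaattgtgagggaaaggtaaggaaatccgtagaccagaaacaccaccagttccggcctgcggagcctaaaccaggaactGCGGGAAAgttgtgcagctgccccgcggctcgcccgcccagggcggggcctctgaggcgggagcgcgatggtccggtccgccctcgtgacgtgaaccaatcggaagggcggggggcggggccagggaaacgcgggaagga
Cdk6 (chr5:3343643-3343892, plus strand): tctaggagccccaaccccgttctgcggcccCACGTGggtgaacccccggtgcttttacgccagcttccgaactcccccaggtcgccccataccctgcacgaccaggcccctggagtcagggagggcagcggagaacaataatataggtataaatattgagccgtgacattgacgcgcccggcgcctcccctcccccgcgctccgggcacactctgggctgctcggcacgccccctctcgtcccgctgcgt
Ccnd3, upstream start (chr17:47504801-47505050, plus strand): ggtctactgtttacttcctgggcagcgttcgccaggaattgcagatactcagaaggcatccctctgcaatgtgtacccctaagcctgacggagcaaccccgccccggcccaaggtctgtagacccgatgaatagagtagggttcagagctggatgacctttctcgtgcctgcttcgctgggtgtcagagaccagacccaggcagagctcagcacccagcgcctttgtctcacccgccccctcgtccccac
Ccnd3, downstream start (chr17:47593217-47593466, plus strand): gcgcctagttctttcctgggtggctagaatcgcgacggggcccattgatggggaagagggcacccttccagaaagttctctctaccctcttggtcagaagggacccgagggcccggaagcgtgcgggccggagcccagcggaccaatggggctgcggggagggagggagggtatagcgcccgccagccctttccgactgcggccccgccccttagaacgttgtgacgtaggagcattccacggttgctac

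Cdk4 held 4 E-boxes, beginning 172, 118, 98 and 11 bases before the start, and Cdk6 held 1, beginning 220 bases before it. An E-box occurred in 6.02% of all 32851 windows of this length, and 4 or more in 7 windows. Cdk2 held TTTCCCGC on the opposite strand (read GCGGGAAA above), beginning 140 bases before the start, a motif found in 0.895% of windows. TTTGGCGC (0.417% of windows) and TTTGAA (5252 windows) were in none of the 6 windows of the members, and GGGCGG (32.7%) was in all of them but that of Cdk6, with 5 in Cdk2 and 4 in Ccne1. These are matches of letters, not measured binding, and the 3′ counts do not show which Ccnd3 start was used.

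Cells were clustered within each library without the 8 genes, and clusters were named by marker genes. At homeostasis 2 clusters were LT-HSC-like (2869 cells), 2 lymphoid-primed-like (1459), 1 megakaryocyte-erythroid-primed-like (583) and 1 neutrophil-primed-like (1007), while 8 stayed unnamed (8374). The neutrophil-primed-like cluster was also led by genes of DNA synthesis (Ung, Uhrf1) beside Elane, and the member Ccne2 was among its 10 leading genes. With Leiden resolution 2 or all variable genes, a cluster led by Ung, Uhrf1, E2f1 and Ccne2 (655 and 1501 cells) stayed unnamed, and the neutrophil-primed-like cluster was another one (787 and 328 cells) without those genes in the lead. At resolution 0.5 no cluster was neutrophil-primed-like. After 5-FU 3 clusters were LT-HSC-like (3650 cells), 1 lymphoid-primed-like (967) and 2 megakaryocyte-erythroid-primed-like (1291), and 6 stayed unnamed (2254). The lymphoid-primed-like type after 5-FU rests on this one setting: no cluster took that name with naming at 2-fold, with Leiden resolution 0.5 or 2 or with all variable genes, so its values in that library describe cluster 4 alone. Of the megakaryocyte-erythroid-primed-like clusters, cluster 9 (335 cells) was led by histone genes. With naming at 2-fold the LT-HSC-like cluster 6 (1571 cells) also stayed unnamed, with 2 of 9 markers raised. No cluster was neutrophil-primed-like after 5-FU at the resolution used: one led by Mcpt8, Ctsg and Ms4a3 and one led by Elane and histone genes each had 4 of 8 markers raised. At resolution 2, clusters of 248 and 228 cells took that name, with 5 and 7 of 8 markers raised. A cluster with raised neutrophil (5 of 8) and B-lineage (4 of 7) markers at homeostasis, and one with raised lymphoid-primed (7 of 7) and B-lineage (6 of 7) markers after 5-FU, stayed unnamed because at least as many B-lineage markers as markers of the other class were among their 10 leading genes.

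Stem cells and progenitors differed in which G1 genes they held. In wild-type cells at homeostasis, LT-HSC-like cells were high in the D-type cyclins Ccnd2 and Ccnd3 and low in Cdk4, Cdk6 and both E-type cyclins, and neutrophil-primed-like cells had less Ccnd2 and Ccnd3 and more of the other 4 than LT-HSC-like cells. The levels below are descriptions, since the markers that named the clusters came from the same cells. All neutrophil-primed-like levels come from the cluster led in part by DNA synthesis genes, and the part of phase in them was not tested.

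Ccnd3, the D-type cyclin best known in lymphocytes and red cell precursors, was at 574.7 CPM in wild-type LT-HSC-like cells at homeostasis. It was at 571.8 CPM in lymphoid-primed-like cells, 349.8 in megakaryocyte-erythroid-primed-like cells and 227.3 in neutrophil-primed-like cells. The first 2 of these did not differ beyond their counting error (fold 0.995, 0.959 to 1.03), and the neutrophil-primed-like level was 0.396 of the LT-HSC-like level (0.375 to 0.417). After 5-FU Ccnd3 was at 181.9 CPM in LT-HSC-like, 190.2 in lymphoid-primed-like and 177.0 in megakaryocyte-erythroid-primed-like cells, and neither of the latter differed from LT-HSC-like cells beyond counting error.

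Ccnd2, the D-type cyclin induced by cytokines in many blood cells, was highest in megakaryocyte-erythroid-primed-like (302.8 CPM) and LT-HSC-like cells (280.7 CPM) at homeostasis, a fold of 1.08 (1.002 to 1.16). Neutrophil-primed-like (226.2 CPM) and lymphoid-primed-like cells (213.8 CPM) were lower. After 5-FU it was lower in wild-type LT-HSC-like cells (177.1 CPM) than in lymphoid-primed-like (241.5) and megakaryocyte-erythroid-primed-like cells (247.1), folds of 1.36 (1.28 to 1.45) and 1.40 (1.32 to 1.47). In knockout cells after 5-FU the 3 types did not differ beyond counting error, at 244.2, 264.2 and 250.8 CPM.

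Ccnd1, which responds to growth factors, had the fewest UMIs of the 3 D-type cyclins in every named type. At homeostasis it was at 23.5 CPM in LT-HSC-like, 26.3 in lymphoid-primed-like, 34.0 in megakaryocyte-erythroid-primed-like and 38.1 in neutrophil-primed-like cells. The first pair did not differ beyond counting error (fold 1.12, 0.932 to 1.34), and neutrophil-primed-like cells were 1.62-fold above LT-HSC-like cells (1.37 to 1.92), all 4 levels below that in barcodes outside cells. Barcodes outside cells held 42.1 CPM of Ccnd1 (36.8 to 47.9), more than the 22.3 CPM inside kept cells of that library, and the other 7 genes lay between 0.623 and 1.0 times their level in kept cells. Outside cells, Ccne1 (3.14 CPM), Ccne2 (9.60), Cdk2 (32.9), Cdk4 (129.8) and Cdk6 (734.1) were also above their levels in wild-type LT-HSC-like cells, given below, and the part of free RNA in those low levels was not tested. Between clusters at homeostasis (both genotypes), Ccnd1 ran from 5.83 CPM (2.80 to 10.7) in cluster 8 to 36.7 CPM (33.2 to 40.5) in cluster 0. The part of free RNA in these Ccnd1 levels was not tested. The share of cells with a Ccnd1 UMI (14.7% of wild-type cells, 7.95% at 4000 UMIs per cell) is not read as expression.

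As shares of the summed D-type cyclin UMIs, wild-type LT-HSC-like cells at homeostasis held 65.4% Ccnd3 (64.4 to 66.4), 31.9% Ccnd2 (31.0 to 32.9) and 2.68% Ccnd1. Lymphoid-primed-like cells were the most Ccnd3-rich named type at 70.4% (69.4 to 71.5). Neutrophil-primed-like cells split evenly, with 46.2% Ccnd3 (44.7 to 47.8) and 46.0% Ccnd2 (44.5 to 47.6), and 7.75% Ccnd1, whose level there (38.1 CPM) was below that outside cells. After 5-FU, wild-type LT-HSC-like cells held 47.4% Ccnd3 (46.2 to 48.6), 46.1% Ccnd2 (44.9 to 47.4) and 6.44% Ccnd1. The unnamed cluster led by Mcpt8, Ctsg and Ms4a3 had the largest Ccnd1 share of all 12 clusters after 5-FU, 22.7% (21.5 to 24.0, both genotypes).

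**Figure D1:**
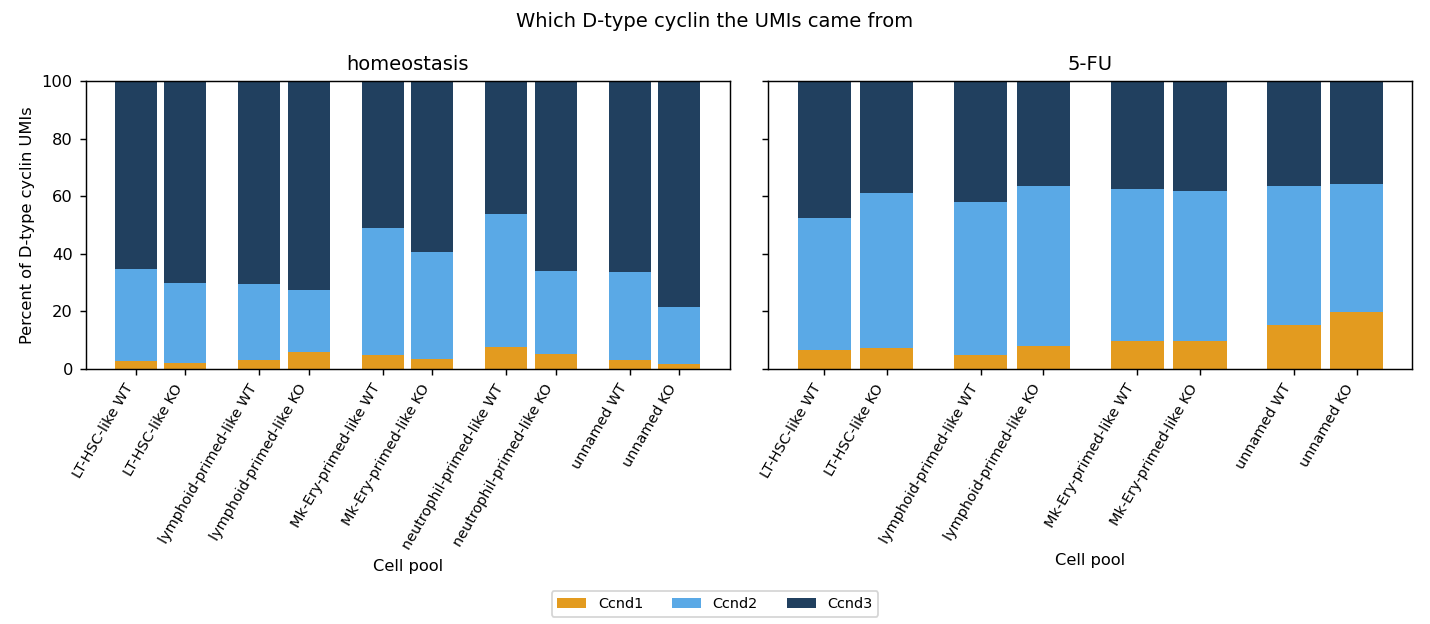
Percent of the D-type cyclin UMIs of each pool that came from Ccnd1, Ccnd2 and Ccnd3 (stacked to 100 percent), for wild-type (WT) and knockout (KO) cells of each named type and of the unnamed clusters, at homeostasis (left) and after 5-FU (right); Mk-Ery stands for megakaryocyte-erythroid. Ccnd3 took 46.2% to 70.4% in the 4 named wild-type types at homeostasis and 37.7% to 47.4% in the 3 after 5-FU.

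Shares and levels were not compared between libraries as a result of 5-FU. Across 9889 genes, the log2 ratio of the homeostasis over the 5-FU library in wild-type cells rose with a gene's intron length in GENCODE M21 (Spearman's rho 0.644, over genes, which are not independent), with a median of -0.37 over genes with up to 6.67 kb of introns and 0.76 over genes with 46.9 kb or more. Cdk6 has 176 kb of introns and Ccnd3 85.9 kb, against 17.6 kb for Ccnd2, 5.29 kb for Ccnd1 and 1.14 kb for Cdk4. Cdk6 and Ccnd3 were the members furthest up in the homeostasis library, by log2 ratios of 1.13 and 1.43. The part of intron length in this, and in the shares of Ccnd3 and Cdk6 against the other members within a library, was not tested. Between genotypes the same correlation was -0.001 at homeostasis and -0.223 after 5-FU.

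The kinases of the D-type cyclins were both lowest in LT-HSC-like cells among the named types in each library. Cdk6 in wild-type cells at homeostasis was at 668.1 CPM in LT-HSC-like, 1204 in lymphoid-primed-like, 1556 in neutrophil-primed-like and 1699 in megakaryocyte-erythroid-primed-like cells, the last 2.54-fold above LT-HSC-like cells (2.45 to 2.64). After 5-FU it was at 409.2 CPM in LT-HSC-like, 644.5 in megakaryocyte-erythroid-primed-like and 865.1 in lymphoid-primed-like cells. Every neighbour in both orders differed beyond counting error. In the signatures the study used, Cdk6 is a short-term and Ccnd2 and Ccnd3 are long-term stem cell genes. All 3 were left out of the signature scores and of the clustering here.

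Cdk4 rose from 97.9 CPM in wild-type LT-HSC-like cells to 147.1 in lymphoid-primed-like, 171.1 in megakaryocyte-erythroid-primed-like and 243.5 in neutrophil-primed-like cells at homeostasis, the last 2.49-fold higher (2.31 to 2.68). That highest value belongs to the cluster led in part by DNA synthesis genes. After 5-FU the order among named types was the same, with 159.4, 201.2 and 236.3 CPM. Cdk4 took 12.8% of the Cdk4 and Cdk6 UMIs in wild-type LT-HSC-like cells at homeostasis (12.1 to 13.5) and 28.0% after 5-FU (27.1 to 28.9). In 1 of the 26 clusters it took more than Cdk6 did: the LT-HSC-like cluster 8 after 5-FU, led by Cldn5, Cyp26b1 and Ramp2, had 59.1% Cdk4 (55.1 to 63.0). That cluster held 315 knockout and 30 wild-type cells. It had the lowest Cdk6 of the 12 clusters after 5-FU (89.2 CPM, 78.5 to 101) and the highest Ccnd2 (372.2 CPM, 349.9 to 395.5), and this cluster was singled out after its values were seen.

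Over all kept cells the E-type cyclins were the scarcest members, and they were the most unequal between clusters. In wild-type neutrophil-primed-like cells at homeostasis Ccne2 (47.3 CPM) was above Ccnd1 (38.1 CPM). At homeostasis Ccne2 went from 4.82 CPM in wild-type LT-HSC-like cells to 47.3 in neutrophil-primed-like cells, 9.72-fold (7.29 to 13.4), and Ccne1 from 1.25 to 10.3 CPM, 7.92-fold (4.54 to 16). These values belong to a cluster led in part by DNA synthesis genes, and at resolution 2 or with all variable genes the cluster led by such genes was not neutrophil-primed-like. Megakaryocyte-erythroid-primed-like cells lay between, at 23.5 and 4.44 CPM. After 5-FU this type led the named types, with 20.4 CPM of Ccne2 and 9.16 CPM of Ccne1, 7.92-fold (5.73 to 11.3) and 10.2-fold (6.04 to 19.6) above LT-HSC-like cells. Its histone-led cluster 9 had 21.4 and 10.4 CPM in wild-type cells, and the other cluster, without it, 19.9 and 8.59 CPM. Lymphoid-primed-like cells (3.45 and 0.985 CPM) did not differ from LT-HSC-like cells (2.55 and 0.871 CPM) beyond counting error. Ccne2 took the larger share of E-type cyclin UMIs in wild-type cells of every named type in both libraries, 69.0% to 84.1%.

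Cdk2, the partner of the E-type cyclins, differed 2.72-fold between its lowest and highest cluster at homeostasis and 1.90-fold after 5-FU. At homeostasis it was at 24.0 CPM in wild-type LT-HSC-like, 26.7 in lymphoid-primed-like, 38.4 in megakaryocyte-erythroid-primed-like and 51.2 in neutrophil-primed-like cells. The first pair did not differ beyond counting error (fold 1.11, 0.929 to 1.33). After 5-FU it was at 34.5, 41.2 and 47.7 CPM in LT-HSC-like, lymphoid-primed-like and megakaryocyte-erythroid-primed-like cells. For Ccne1 the lowest and highest of the 12 clusters after 5-FU differed 47.5-fold, the lowest on 1 UMI.

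**Figure D2:**
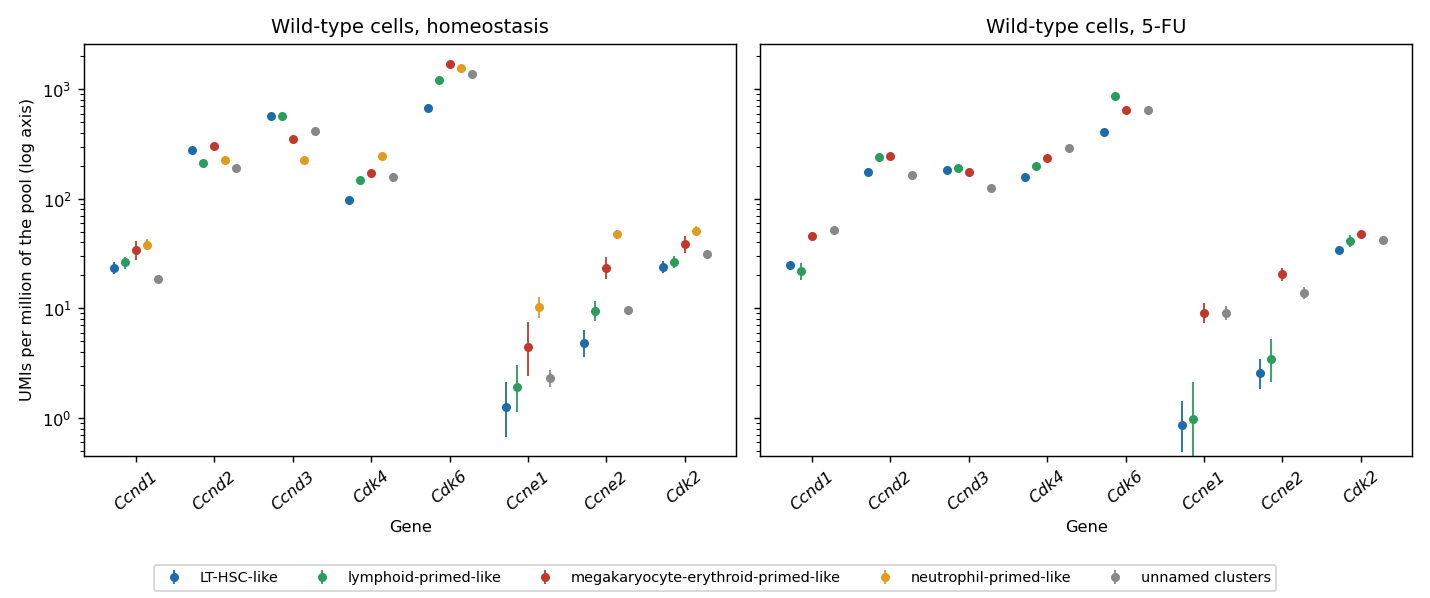
Level of each member in wild-type cells (CPM of the pool, log axis) by named cell type and in the unnamed clusters together, at homeostasis (left) and after 5-FU (right); bars are exact 95% Poisson intervals, 1 of which (Ccne1 in lymphoid-primed-like cells after 5-FU) runs below the axis. LT-HSC-like cells (blue) sit lowest of the named types for Cdk4, Cdk6, Ccne1, Ccne2 and Cdk2 in both panels, with Cdk6 at 668.1 and 409.2 CPM.

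The members also differed by phase. Cells thinned to 4000 UMIs were scored with S and G2/M gene lists that hold no member, and a class is a range of a score: 5.21% of scored cells at homeostasis and 4.95% after 5-FU lay within 0.01 of a boundary. In wild-type cells at homeostasis, Ccne1 was at 0.799 CPM in cells scored as neither and 8.47 CPM in cells scored S, 10.5-fold higher (7.23 to 16), and Ccne2 at 4.15 and 36.0 CPM, 8.67-fold higher (7.33 to 10.3). After 5-FU the folds were 14.1 (9.90 to 21.0) and 9.69 (7.66 to 12.5). Both E-type cyclins thus stood high in S-scored cells of both libraries, and in G2/M-scored cells they were between 2.47- and 3.44-fold above the cells scored as neither.

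The kinases rose less. In S-scored cells Cdk4 was 1.73-fold (1.66 to 1.80), Cdk2 1.82-fold (1.67 to 1.99) and Cdk6 1.20-fold (1.18 to 1.21) above cells scored as neither at homeostasis, and 1.90-, 1.59- and 1.19-fold after 5-FU. The D-type cyclins split. Ccnd1 was 1.74-fold higher in S-scored cells at homeostasis (1.58 to 1.93) and 2.58-fold after 5-FU (2.34 to 2.84), Ccnd2 1.06- and 1.17-fold, while Ccnd3 was lower, at 0.567 (0.551 to 0.583) and 0.754 (0.712 to 0.799) of its level in cells scored as neither. Ccnd3 was the only member lower in both S-scored and G2/M-scored wild-type cells of both libraries. LT-HSC-like cells were mostly scored as neither (90.9% to 91.3% of each of the 4 pools), and the few scored S (61 and 35 cells at homeostasis, 33 and 20 after 5-FU) left too few UMIs of most members to compare.

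**Figure D3:**
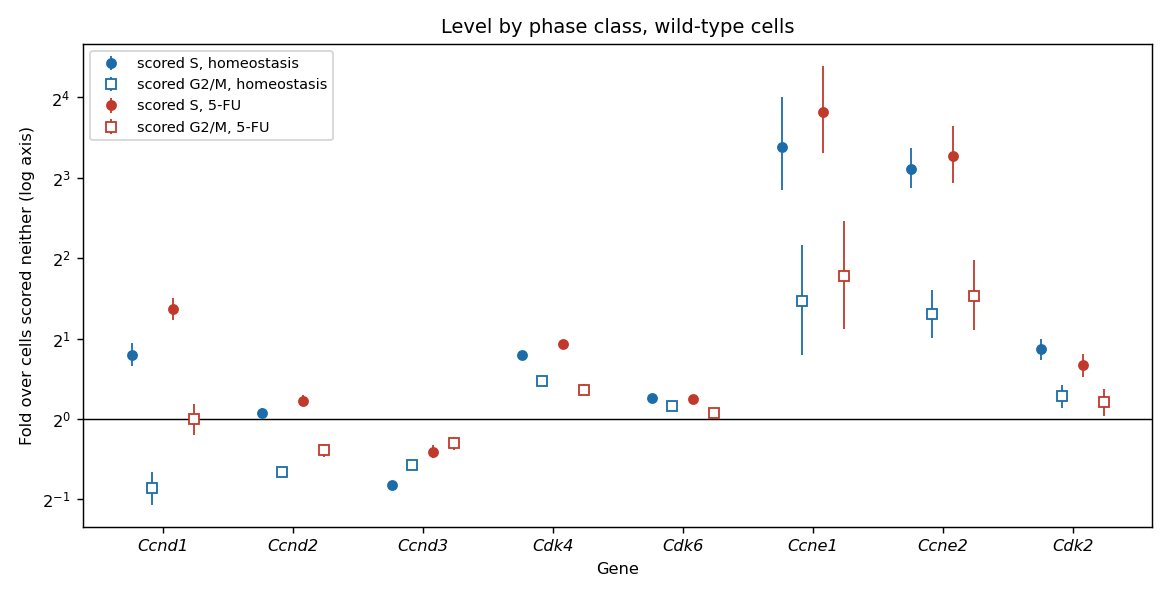
Fold of each member in wild-type cells scored S (filled circles) or G2/M (open squares) over wild-type cells scored as neither (log axis), at homeostasis (blue) and after 5-FU (red), with 95% counting intervals. Ccne1 and Ccne2 stand 8.67- to 14.1-fold up in S-scored cells, and Ccnd3 lies below 1 in all 4 comparisons.

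Within each library, the genotypes were compared by the log2 ratio of a gene's CPM in knockout cells to its CPM in wild-type cells. Ratios past 1.5-fold either way were counted among genes with at least 50 UMIs in the pools together. In all kept cells, 1 of the 8 members was past 1.5-fold at homeostasis (Ccnd3, higher in knockout cells), where 10.6% of 15509 genes were, and 0 of 8 after 5-FU, where 8.48% of 13510 genes were. In LT-HSC-like cells, 2 of the 7 members with enough UMIs were past it at homeostasis (Cdk6 and Ccne2, both lower), beside 7.05% of 12338 genes, and 0 of 7 after 5-FU, beside 6.61% of 12107 genes. Ccne1 had 28 and 29 UMIs in LT-HSC-like cells and did not enter those counts. The median log2 ratio over the members was 0.001, -0.01, 0.17 and -0.05 in these 4 comparisons, and over all genes counted 0.006, -0.02, -0.02 and -0.01, in the order all kept cells and LT-HSC-like cells at homeostasis, then after 5-FU.

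Cdk6 was lower in knockout cells of both libraries. At homeostasis it was at 1298 CPM in wild-type and 871.0 CPM in knockout cells, a log2 ratio of -0.58 (-0.59 to -0.56), and after 5-FU at 591.3 and 420.1 CPM, a log2 ratio of -0.49 (-0.52 to -0.47). In LT-HSC-like cells it was at 668.1 and 411.5 CPM at homeostasis (log2 ratio -0.70, -0.76 to -0.64) and at 409.2 and 272.8 CPM after 5-FU (-0.58, -0.64 to -0.53). The ratios in all kept cells at homeostasis and in LT-HSC-like cells after 5-FU fell just short of 1.5-fold, 0.585 on the log2 scale. The direction was the same in 13 of 14 clusters at homeostasis and 11 of 12 after 5-FU, with the interval below 0 in 13 and 10 of them, and the cluster medians were -0.33 and -0.32. Such counts, here and for other members, are not repeats, since the clusters of a library divide the same pools. Some clusters held few cells of a genotype, such as 34 knockout cells in cluster 7 at homeostasis. Cluster 11 after 5-FU was shallow, with a median of 1866.5 UMIs per cell.

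The makeup of the pools moves with this ratio. Most wild-type LT-HSC-like cells at homeostasis lay in cluster 7 (871 of 1461) and most knockout ones in cluster 9 (1374 of 1408). Cdk6 had a log2 ratio of -0.37 (-0.45 to -0.29) within cluster 9 and 0.12 (-0.08 to 0.31) within cluster 7, where knockout cells numbered 34. With both genotypes weighted to the same cluster makeup, Cdk6 stood at -0.15 and Ccne2 at -0.01 in LT-HSC-like cells at homeostasis, so that 0 of 7 members were past 1.5-fold there, and Cdk6 stood at -0.31 in all kept cells. These weighted values have no interval. For LT-HSC-like cells, the knockout side of cluster 7 in them rests on its 34 cells. In all kept cells, clusters 3 and 6 also held few knockout cells, 46 and 66. After 5-FU the LT-HSC-like clusters 6 and 7 gave -0.69 (-0.78 to -0.59) and -0.21 (-0.28 to -0.14), and cluster 8 0.46 (-0.29 to 1.44) on 13 wild-type UMIs. Cluster 6 held 783 wild-type and 788 knockout cells, cluster 7 held 1157 and 577, and cluster 8 held 30 and 315. Interferon and antigen presentation genes (Cxcl10, H2-Eb1, H2-Aa, Cd74) led cluster 6. With naming at 2-fold, which leaves cluster 6 out, the LT-HSC-like ratio after 5-FU was -0.51, and with the same cluster makeup -0.38.

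Ccnd3 was higher in knockout cells at homeostasis, and after 5-FU the pools did not differ beyond counting error. It was at 432.7 CPM in wild-type and 693.3 CPM in knockout cells at homeostasis, a log2 ratio of 0.68 (0.66 to 0.70), or 1.60-fold. After 5-FU it was at 160.8 and 160.9 CPM, a log2 ratio of 0.0003 (-0.05 to 0.05). In LT-HSC-like cells it was at 574.7 and 792.0 CPM at homeostasis (0.46, 0.41 to 0.51), and at 181.9 and 175.2 CPM after 5-FU (-0.05, -0.13 to 0.02). The ratio was above 0 in 13 of 14 clusters at homeostasis, each with its interval above 0, from 0.22 in cluster 4 to 0.83 in cluster 13. The exception, cluster 11 led by the B-lineage genes Ebf1 and Vpreb3, stood at -0.17 (-0.38 to 0.03). With both genotypes weighted to the same cluster makeup, the ratio in all kept cells was 0.51, short of 1.5-fold, and with the same phase makeup 0.60. Neither value has an interval, and the first rests in part on clusters with few knockout cells, such as 46 in cluster 3. LT-HSC-like cells made up 14.3% of wild-type against 34.3% of knockout cells, and the unnamed cluster 10, with the highest Ccnd3 of the 14 (792.2 CPM), 1.72% and 35.6%. After 5-FU the 12 clusters ran from -0.25 to 0.29, 5 above and 7 below 0. Whether the ratios differ between libraries was not tested, since each genotype is 1 pool in each.

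**Figure D4:**
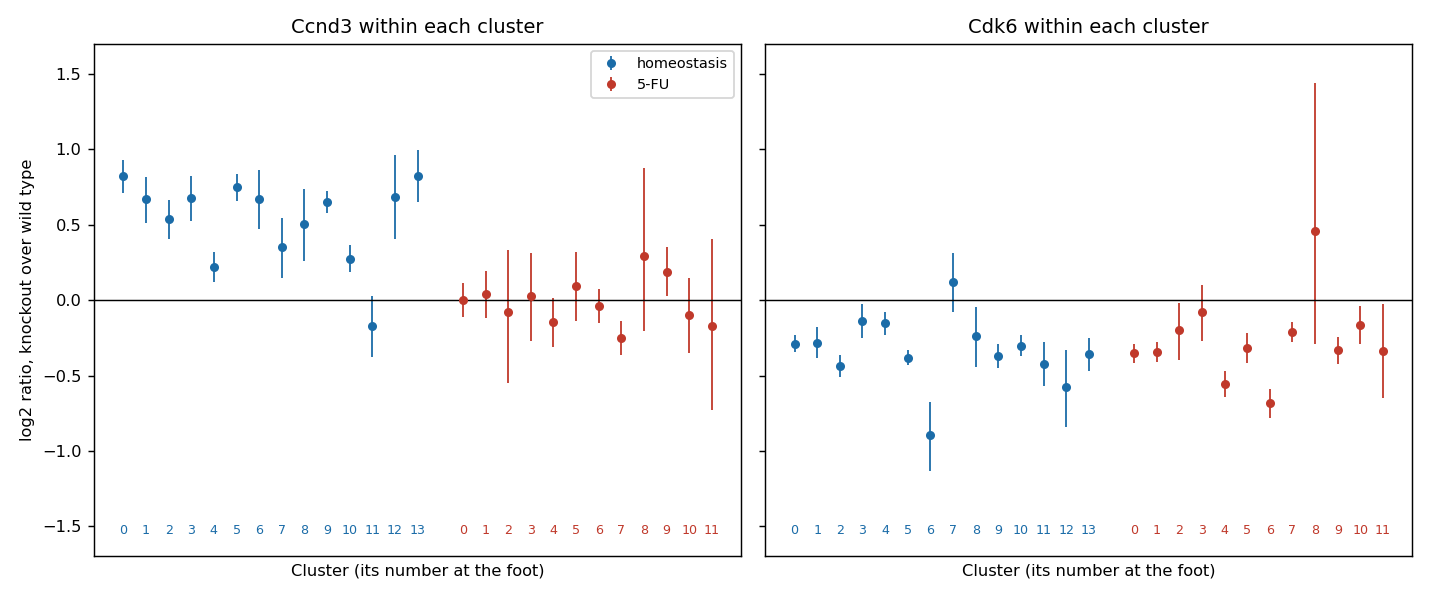
Log2 ratio (knockout to wild type) of CPM of Ccnd3 (left) and Cdk6 (right) within each cluster, at homeostasis (blue, clusters 0 to 13) and after 5-FU (red, clusters 0 to 11), with 95% counting intervals; cluster numbers of one library do not match those of the other. Ccnd3 lies above 0 in 13 of 14 clusters at homeostasis and on both sides after 5-FU, and Cdk6 lies below 0 in 13 of 14 and 11 of 12.

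As a share of D-type cyclin UMIs, Ccnd3 went from 64.7% in wild-type (64.3 to 65.1) to 73.7% in knockout cells (73.2 to 74.2) at homeostasis. Neutrophil-primed-like cells moved furthest among the named types, from 46.2% to 66.1% (63.7 to 68.5). Cells with at least 1 UMI of Ccnd3 but none of Ccnd1 or Ccnd2, at 4000 UMIs per cell, made up 32.7% of the wild-type pool and 37.4% of the knockout pool at homeostasis, and 30.3% and 29.6% in LT-HSC-like cells. After 5-FU these shares were 22.5% and 19.5%, and 27.2% and 21.0% in LT-HSC-like cells. Outside cells at homeostasis, Ccnd3 was at 0.698 and Ccnd2 at 0.733 times the level in kept cells. These shares of cells are therefore not read as expression. After 5-FU the Ccnd3 share was lower in knockout LT-HSC-like cells, at 38.7% (37.6 to 39.9) against 47.4% in wild-type cells, as the Ccnd2 share went from 46.1% to 54.0% (52.8 to 55.1).

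Ccnd2 was 1.38-fold higher in knockout LT-HSC-like cells after 5-FU (177.1 against 244.2 CPM, log2 ratio 0.46, 0.40 to 0.53). Within its clusters 6, 7 and 8 the log2 ratio was 0.25 (0.14 to 0.35), 0.12 (0.01 to 0.23) and 0.88 (0.45 to 1.38). At homeostasis the same comparison gave 280.7 and 314.8 CPM (0.17, 0.09 to 0.24), and cells other than LT-HSC-like gave -0.10 (-0.15 to -0.05). The LT-HSC-like pools at homeostasis held no such difference within their clusters, with -0.02 (-0.40 to 0.32) in cluster 7 and -0.03 (-0.13 to 0.07) in cluster 9. In neutrophil-primed-like cells it was lower in knockout cells, at 226.2 against 173.8 CPM (-0.38, -0.54 to -0.23).

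Ccnd1 did not differ beyond counting error at homeostasis (22.6 against 21.4 CPM, log2 ratio -0.08, -0.21 to 0.05), and was higher in knockout cells after 5-FU (38.5 against 46.7 CPM, 0.28, 0.19 to 0.37). In LT-HSC-like cells after 5-FU it was at 24.7 and 32.9 CPM (0.41, 0.23 to 0.60). In lymphoid-primed-like cells it was at 26.3 CPM in wild-type and 55.8 CPM in knockout cells at homeostasis (1.09, 0.73 to 1.43, 247 and 95 UMIs), and at 21.8 and 36.9 CPM after 5-FU (0.76, 0.36 to 1.15, 133 and 92 UMIs). Those pools had 1243 and 216 cells at homeostasis and 726 and 241 after 5-FU. Of 11 clusters with 50 UMIs at homeostasis, 8 had a Ccnd1 ratio below 0 (median -0.25), with the interval above 0 in 1 and below 0 in 1. Both pools of all kept cells at homeostasis, and wild-type lymphoid-primed-like cells, lay below the 42.1 CPM of Ccnd1 outside cells. The part of free RNA in these ratios was not tested.

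Cdk4 moved little. It was at 159.2 CPM in wild-type and 144.6 CPM in knockout cells at homeostasis (log2 ratio -0.14, -0.19 to -0.09), and at 227.0 and 258.4 CPM after 5-FU (0.19, 0.15 to 0.22). At homeostasis the 14 clusters had a median of 0.06: 8 were above 0, 2 of them with the interval above 0, and 0 had an interval below 0. After 5-FU 11 of 12 clusters were above 0, 7 with the interval above 0. With Cdk6 lower, the Cdk4 share of the Cdk4 and Cdk6 UMIs was higher in knockout cells of every named type: it went from 12.8% to 18.5% in LT-HSC-like cells at homeostasis and from 28.0% to 39.6% after 5-FU.

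Ccne2 was at 13.3 CPM in wild-type and 9.65 CPM in knockout cells at homeostasis (log2 ratio -0.46, -0.65 to -0.28), and at 4.82 and 2.38 CPM in LT-HSC-like cells (-1.003, -1.82 to -0.27, 50 and 22 UMIs). After 5-FU it was at 10.1 and 11.3 CPM (0.15, -0.03 to 0.33), and in LT-HSC-like cells at 2.55 and 2.28 CPM (-0.16, -0.84 to 0.50). Fewer knockout cells were scored S at homeostasis, 14.7% against 20.6%, and within S-scored cells Ccne2 had a ratio of -0.04 (-0.28 to 0.18). Over other ways of processing, the same phase makeup among them, the Ccne2 ratio in all kept cells at homeostasis ran from -0.60 to -0.08. Of its 7 clusters with 50 UMIs at homeostasis, 6 had a ratio below 0 (median -0.16). In 0 of them was the interval above 0 or below 0. Beyond these values, the part of phase in the ratios of Ccne2 was not tested. Ccne1 was at 3.00 and 3.48 CPM at homeostasis (0.22, -0.12 to 0.54) and at 5.45 and 6.99 CPM after 5-FU (0.36, 0.12 to 0.60). The Ccne1 ratio after 5-FU ranged from -0.27 to 0.60 over other ways of processing. Of its 4 clusters with 50 UMIs, 1 had the interval above 0 and 1 below. Cdk2 was at 32.4 and 34.2 CPM at homeostasis (0.08, -0.02 to 0.18) and at 40.5 and 39 CPM after 5-FU (-0.06, -0.15 to 0.04), and so did not differ beyond counting error in either. In LT-HSC-like cells at homeostasis Cdk2 was at 24.0 and 29.2 CPM (0.28, 0.03 to 0.53).

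**Figure D5:**
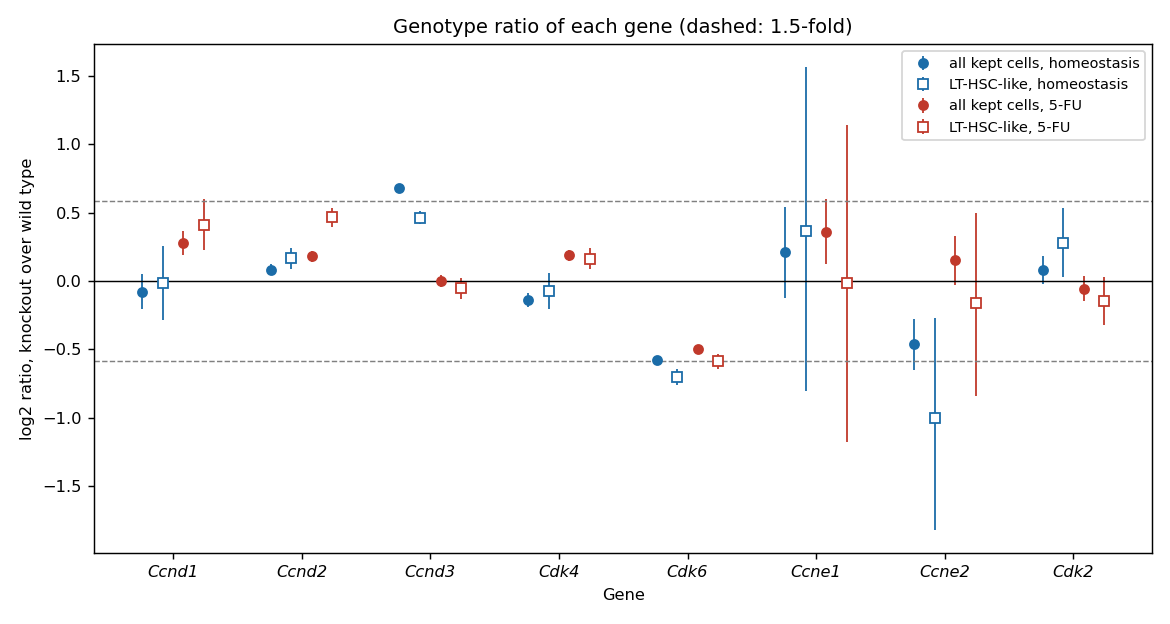
Log2 ratio (knockout to wild type) of each member's CPM in all kept cells (filled circles) and LT-HSC-like cells (open squares), at homeostasis (blue) and after 5-FU (red), with 95% counting intervals; dashed lines mark 1.5-fold. Cdk6 lies below 0 in all 4 comparisons (-0.70 to -0.49), Ccnd3 lies at 0.68 and 0.46 at homeostasis, and the intervals of Ccne1 and Ccne2 in LT-HSC-like cells are wide.

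Markers of other cell types moved with genotype too. In all kept cells, the 8 megakaryocyte-erythroid-primed markers summed to 161.0 CPM in wild-type and 302.2 CPM in knockout cells at homeostasis (8 of 8 higher in knockout cells) and to 516.1 and 844.4 CPM after 5-FU (7 of 8). The 9 LT-HSC markers summed to 1686 and 2141 CPM (9 of 9) and to 938.1 and 993.6 CPM (7 of 9), the 7 lymphoid-primed markers to 852.8 and 615.7 CPM and to 267.9 and 153.3 CPM (0 of 7 in both), and the 8 neutrophil-primed markers to 596.8 and 494.2 CPM (5 of 8) and to 831.9 and 600.6 CPM (2 of 8). The 5 mast cell and basophil markers summed to 35.4 and 20.5 CPM and to 41.9 and 25.7 CPM (0 of 5 in both). The 7 B-lineage markers went the other way at homeostasis, with 35.2 and 43.7 CPM (6 of 7), but not after 5-FU, with 39.4 and 31.1 CPM (0 of 7). The 5 T and natural killer cell markers did likewise at low levels, with 2.14 and 2.98 CPM (4 of 5) and 1.33 and 0.940 CPM (0 of 5). The 6 endothelial and stromal markers summed to 3.33 and 9.25 CPM (4 of 6) and to 13.0 and 16.2 CPM (2 of 6). In LT-HSC-like pools, the 7 lymphoid-primed markers summed to 319.2 CPM in wild-type and 196.9 CPM in knockout cells at homeostasis (0 of 7 higher in knockout cells) and to 192.2 and 121.9 CPM after 5-FU (1 of 7), with Rag1 at 0 in both pools at homeostasis. The 8 megakaryocyte-erythroid-primed markers summed to 170.1 and 216.7 CPM (5 of 8 higher) and to 247.9 and 306.8 CPM (6 of 8). The 8 neutrophil-primed markers summed to 421.6 and 368.4 CPM (4 of 8 higher) and to 798.3 and 644.5 CPM (3 of 8), and the 6 endothelial and stromal markers to 7.62 and 14.7 CPM (3 of 6) and to 15.9 and 17.3 CPM (4 of 6), with Cxcl12 at 0 in both pools at homeostasis. The 5 T and natural killer cell markers in these pools summed to 0.965 CPM or less, with Cd3e, Cd3g and Ncr1 at 0. The part of these in the ratios was not tested. Fewer cells with a transcript and less RNA per cell were not told apart in pooled sums.

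The other genes of the pathway were counted the same way. They were not weighted to the same cluster makeup, and the part of the pools' makeup in their ratios was not tested. Of 29 partners (inhibitors, retinoblastoma family, E2F and DP factors, CDK-activating kinase, turnover factors and upstream or downstream regulators), 27 had 50 UMIs in all kept cells of either library and 0 were past 1.5-fold in either direction, beside the 10.6% and 8.48% of all genes given above. In LT-HSC-like cells 1 of 24 was higher in knockout cells at homeostasis and 3 of 25 after 5-FU, and 0 were lower, beside 7.05% and 6.61% of all genes either way. The first was Cdkn2c, which encodes the CDK4 and CDK6 inhibitor p18, at 12.1 against 19.8 CPM (log2 ratio 0.71, 0.38 to 1.05), with -0.26 (-0.46 to -0.06) after 5-FU. The 3 after 5-FU were Mycn, a growth-promoting MYC family factor (48.3 against 79.5 CPM, 0.72, 0.59 to 0.84), Cdkn1a, the p53-responsive inhibitor p21 (4.87 against 7.93 CPM, 0.70, 0.30 to 1.12), and Cdkn1c, the quiescence-linked inhibitor p57 (31.7 against 48.9 CPM, 0.63, 0.47 to 0.79).

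Across the 26 clusters of both libraries (genotypes merged, each library centred, 9894 genes with 500 UMIs in each library), the genes whose pattern was most like each member were ranked by Pearson's r. The clusters share their library and differ in depth, so r describes these clusters only. Among the 3 genes most like Ccne2 were E2f1 (0.962) and Cdt1 (0.959), and among those most like Ccne1 were Dut (0.936) and Tmem107 (0.932). Dut keeps uracil out of DNA, and Cdt1 loads replication origins. Cdk2 was most like Rnf168 (0.898), Slbp (0.888) and Wdr76 (0.885). Cdk4 was most like Nubp1 (0.973), Slc25a5 (0.966) and Nmral1 (0.959), and Cdk6 most like Runx3 (0.956), AI504432 (0.927) and Fam117a (0.904).

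The D-type cyclins had looser neighbours, the highest r being 0.822. Ccnd1 was most like Ung (0.778), Cd3eap (0.744) and Alkbh2 (0.730), Ccnd2 most like Rpp38 (0.822), Uri1 (0.812) and Shfl (0.810), and Ccnd3 most like Rffl (0.809), Serpinb9 (0.799) and Zdhhc17 (0.791). Among the members, Ccne1 and Ccne2 (0.897) and Ccne2 and Cdk2 (0.840) were the most alike over these clusters, and Ccnd3 and Cdk4 the most opposed (-0.783).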

How the data were processed

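The authors deposited raw counts of UMIs per gene and barcode from Cell Ranger, in a different version for each library according to the table headers; the labels name mm9 as genome build, and no coordinate was taken from the tables. The feature list of the 5-FU table named the rows of both tables, after a check that log counts matched row by row (correlation 0.919, and at most 0.394 when shifted). The homeostasis table listed all barcodes, so barcodes with at least 2921 gene UMIs were taken as cells. Genotypes were assigned with HTODemux (Seurat 5.3.0) from the hashtag counts in the same tables; barcodes with both tags were removed, so doublets within a genotype remain. Cells were dropped in the extreme 2% at either end of UMIs, genes detected or mitochondrial share, or when 9 lineage genes held 2 or more UMIs. Each library was clustered with scanpy 1.11.5 (2000 variable genes, 30 components, 20 neighbours, Leiden resolution 1) without 136 genes, among them the members, partners, phase genes and Sin3b. A cluster took a class name when over 50% of that class's markers exceeded the remaining cells 1.5-fold, at least 3 of them, unless markers of some other class equalled or outnumbered its own among its 10 leading genes.

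Counts were summed over the cells of a pool and scaled to the pool's UMIs (CPM). Each molecule is tagged at its 3′ end, so levels were not divided by length, and orders between genes are orders of UMI counts. Whether intron length enters such orders within a library was not tested. Ratios had 0.5 counts added and carry exact conditional binomial intervals, levels exact Poisson and shares exact binomial intervals, all at 95% and for counting error only. With 1 pool per genotype no p-value was computed. The ratio and its interval were tested on simulated Poisson counts. These hold no spread between cells or mice and no difference in makeup, so only the calculation was checked. Named are all members, the partners past 1.5-fold in any comparison, and the 3 genes most like each member, of which 1 gene is not reported here. The members and lists were chosen with earlier results of these data known.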

Additional observations from a re-analysis of the deposited data

Results flagged for a closer look

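For 2 members the genotype ratio pointed in opposite directions in groups under the same contrast, with both counting intervals off 0. The difference itself was not tested, as each group is 1 pool. At homeostasis the log2 ratio of Ccnd2 was 0.17 in LT-HSC-like cells and -0.10 in the other cells, and neither LT-HSC-like cluster differed beyond counting error on its own. In all kept cells the log2 ratio of Cdk4 was -0.14 at homeostasis and 0.19 after 5-FU, and the first ranged from -0.25 to 0.06 over the alternatives, with 8 of 14 clusters above 0.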

How the results depend on the processing

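With 1 pool per genotype, no sample could be left out. No paired analysis was possible because the labels give no mice and each genotype is 1 pool in each library. Of the 30 member ratios 3 were called, and their 45 alternatives kept the direction. Some ratios that were not called crossed 0 over the alternatives. Among these were Ccne1 in all kept cells after 5-FU (-0.27 to 0.60) and Ccnd2 in LT-HSC-like cells at homeostasis (-0.03 to 0.21). Over all 30 ratios, 85 of 479 alternative values left the counting interval. Other scalings shifted all genes by 0.03 or less on the log2 scale. Ccnd3 at homeostasis (all kept cells) ranged from 0.51 to 0.96, Cdk6 in LT-HSC-like cells at homeostasis from -0.82 to -0.15 and Ccne2 there from -1.215 to -0.01. The count of members past 1.5-fold in all kept cells at homeostasis went from 1 to 2 with a tag holding 80% of the hashtag UMIs, a stricter HTODemux quantile, the mean of per-cell CPM, median-of-ratios factors or TMM, and to 3 with cells thinned to 4000 UMIs; with the same cluster makeup it stayed 1, but Ccne1 (0.62) took the place of Ccnd3 (0.51). In LT-HSC-like cells at homeostasis it went from 2 to 1 with the stricter quantile, Leiden resolution 2, thinned cells or at least 200 UMIs, and to 0 with the same cluster makeup. In all kept cells after 5-FU it went from 0 to 1 without the filter on tails (Ccne1) and with per-cell CPM or thinned cells (Cdk6). In LT-HSC-like cells after 5-FU it went from 0 to 1 (Cdk6) with the study's signature scores, per-cell CPM and, both chosen after seeing the data, without barcodes of 0 hashtag UMIs or without barcodes of both libraries, to 2 with the stricter quantile, and to 3 (Ccnd1, Ccnd2 and Cdk6) with Leiden resolution 2, all variable genes or thinned cells. Shares of D-type cyclin UMIs in wild-type LT-HSC-like cells depended on how these cells were named. After 5-FU, Ccnd1 was at 8.57% with naming at 2-fold, 5.30% with all variable genes, 7.34% and 4.06% at Leiden resolutions 0.5 and 2, and 5.40% thinned. Ccnd2 was at 42.6% with naming at 2-fold, 43.96% with all variable genes and 52.2% with the signature scores. Ccnd3 was at 48.9% with naming at 2-fold, 50.7% with all variable genes, 50.1% at resolution 2, 41.9% with the signature scores and 49.5% thinned. At homeostasis, Ccnd1 was at 3.10% with the signature scores. Ccnd2 was at 34.6% with all variable genes, 33.8% and 34.0% at resolutions 0.5 and 2, 36.0% with the signature scores, 33.3% with the 80% tag and 32.95% thinned. Ccnd3 was at 62.5%, 63.2%, 63.0%, 60.9% and 63.9% under the first 5 of these.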
